A study of Homo sapiens with 4 samples.

Results

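FOXK1 peaks were described at 10 genes of insulin and mTORC1 signalling: INSR, IRS1, AKT1, AKT2, GSK3A, GSK3B, MTOR, RPTOR, RHEB and TSC1. The genes were taken as a fixed list of symbols, and all 10 were found among 20037 protein-coding genes on the assembled chromosomes of GRCh38. Each gene was given a window made of its annotated body plus 5 kb on either side, and every deposited peak that touched the window was kept. The windows together spanned 1403.1 kb and held 228 of 381700 peaks of the untreated list and 271 of 439136 peaks of the TGF-β1 list.

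The peaks came from chromatin immunoprecipitation sequencing of FOXK1, a forkhead transcription factor, in HK-2 cells, an immortalised line of human proximal tubule epithelium. Untreated cells, the control of the labels, were compared with cells that had received TGF-β1, a cytokine of fibrosis, at 10 ng/ml over 24 h. Each condition was represented by 1 FOXK1 library and 1 input library, 4 libraries in all, and the labels named no genetic change in either condition. The study asked how FOXK1 takes part in renal fibrosis and glycolysis, and the comparison here is between the untreated and the TGF-β1 list. A peak list does not measure expression, so the tubule identity of the cells was taken from the labels and could not be checked against marker genes.

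Insulin binds its receptor, INSR, which phosphorylates the adaptor IRS1 and so recruits phosphoinositide 3-kinase and the kinases AKT1 and AKT2. Active AKT phosphorylates GSK3A and GSK3B, the kinases that hold glycogen synthase back, and inhibits the TSC complex, of which TSC1 is the scaffold. The TSC complex in turn switches off RHEB, the small GTPase that activates mTORC1, the complex of the kinase MTOR and its substrate adaptor RPTOR. FOXK1 is itself known as a target of this pathway, through GSK3 and mTORC1, and as a repressor of autophagy genes.

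One member stood far above the others in both lists. TSC1 had a start-site peak of height 132 in the untreated list and 87 in the TGF-β1 list, whereas the highest start-site peak of any other member was 34. Height is the authors' pileup, a whole number of at least 3 with a median of 5 in either list. Strong peaks were those as high as the 10000th highest of their list, 17 or more in the untreated list and 15 or more in the TGF-β1 list. A start-site peak touched the 1 kb on either side of a RefSeq start. Because the depth is unknown and no condition was replicated, heights of the 2 lists are set side by side without a test, and a difference between them compares 2 libraries.

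The promoters of the 3 members with a strong start-site peak in both lists are shown because those peaks lay over them. The peaks were wider than the 300 bases printed for each gene, and the rest of the sequence under them was not searched. The sequences are RefSeq promoters on GRCh38.p14, from 250 bases before the start to 50 bases after it, on the minus strand and written 5′ to 3′. TSC1 lies at chr9:132944567-132944866, AKT2 at chr19:40285296-40285595 and MTOR at chr1:11262502-11262801. Capitals mark matches on either strand to AAACA, a short forkhead-like sequence, to the CCAAT box of NF-Y, to CCGGAAG, an ETS sequence, and to ATGGCGG, the core of the YY1 motif.
TSC1: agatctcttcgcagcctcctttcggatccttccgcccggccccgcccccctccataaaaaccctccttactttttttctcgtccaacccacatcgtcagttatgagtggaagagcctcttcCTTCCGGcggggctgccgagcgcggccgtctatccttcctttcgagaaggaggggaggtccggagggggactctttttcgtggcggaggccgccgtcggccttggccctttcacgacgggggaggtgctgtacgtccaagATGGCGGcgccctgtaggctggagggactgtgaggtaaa
AKT2: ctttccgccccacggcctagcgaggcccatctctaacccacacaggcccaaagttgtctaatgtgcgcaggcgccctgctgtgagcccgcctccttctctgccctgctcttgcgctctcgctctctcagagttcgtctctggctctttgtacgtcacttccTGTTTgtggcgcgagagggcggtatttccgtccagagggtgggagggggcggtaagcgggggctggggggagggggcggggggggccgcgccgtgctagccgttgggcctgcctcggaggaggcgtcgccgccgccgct
MTOR: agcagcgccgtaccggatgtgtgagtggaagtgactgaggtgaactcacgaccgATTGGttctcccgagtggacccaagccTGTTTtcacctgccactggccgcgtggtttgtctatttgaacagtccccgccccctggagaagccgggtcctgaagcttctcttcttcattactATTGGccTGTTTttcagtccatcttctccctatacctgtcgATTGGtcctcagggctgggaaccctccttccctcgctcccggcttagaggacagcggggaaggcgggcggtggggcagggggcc

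None of these promoters held the forkhead sequence in full. Of the 12 promoters listed for the 10 members, with AKT1 and AKT2 having 2 each, 0 held TAAACA, the forkhead core, against 12.3% of all 35116 listed promoters. The longer GTAAACA, which contains that core, was likewise in 0 of 12 and in 3.42% of all promoters. Among the 3166 promoters of genes with a strong start-site peak in both lists these shares were 13.3% for the core and 6.22% for the longer form. The letters AAACA, which both of the longer forms contain, were in 6 of 12 member promoters and in 44.4% of all. In the AKT2 promoter they began at position -89 and in the MTOR promoter at -169 and -68, with the start base counted as 1. The TSC1 promoter held none of the forkhead sequences searched.

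Other short motifs differed between the 3 promoters. The MTOR promoter had CCAAT boxes beginning at -196, -75 and -34, all on the strand opposite to the gene. A CCAAT box was found in 4 of 12 member promoters and 34.6% of all. The TSC1 promoter had CCGGAAG on the opposite strand at -129, a sequence in 10.3% of all promoters, and ATGGCGG at 12, just after the start, a sequence in 5.55% of all. Of the member promoters, 1 had each of these. The AP-1 sequence TGANTCA was in 0 of 12 and in 7.71% of all, and the E-box CACGTG in 1, that of IRS1, and in 7.26%. The GC box GGGCGG, left in lower case, was in 11 of 12 and in 45.0% of all promoters. Most of these shares were higher among the 3166 promoters of genes with a strong start-site peak in both lists. There they were 65.5% for the GC box, 36.7% for CCAAT, 16.8% for CCGGAAG, 9.67% for ATGGCGG and 12.3% for CACGTG. For TGANTCA the share there was lower, 6.0%. These are matches of letters within 300 bases and not mapped binding sites.

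The 10 genes all had a start-site peak in the untreated list, and 9 of 10 had one in the TGF-β1 list, AKT1 being the exception. Of all protein-coding genes, 70.7% and 69.4% had a start-site peak of any height, so a count of any height says little about these members. Strong start-site peaks were found at 5 members without TGF-β1 and at 4 with it, against 17.0% and 15.6% of all genes. Only TSC1, AKT2 and MTOR were strong in both, against 11.9% of all genes, and the TGF-β1 peak of MTOR, of 15, was exactly at the threshold. The median of the highest start-site peak over the members was 16 without TGF-β1 and 13.5 with it, and over all genes it was 7 in each.

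**Figure D1:**
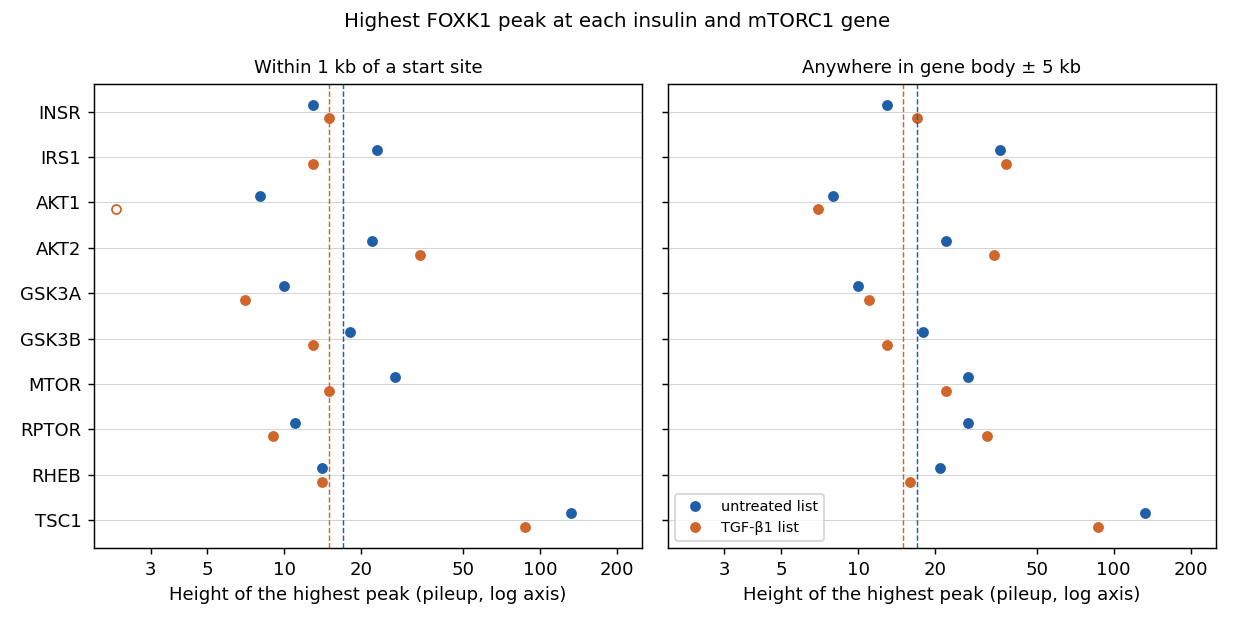
Height of the highest FOXK1 peak at each of the 10 genes, within 1 kb of a start site (left) and anywhere in the gene body plus 5 kb (right), on a log axis; blue circles are the untreated list, orange circles the TGF-β1 list, the open circle marks no peak, and dashed lines mark where strong peaks begin in each list, at 17 and 15. TSC1 sits far to the right of the other members in both panels with 132 and 87, and AKT1 furthest to the left, with 8 and no peak at the start and 8 and 7 in the window.

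TSC1, the brake on RHEB, had its peak at chr9:132944269-132945279 in the untreated list and at chr9:132943626-132945380 in the TGF-β1 list. Both covered all 300 bases of the printed promoter. The untreated peak was the 60th highest of its list and the TGF-β1 peak the 143rd, and by start-site height TSC1 came 38th and 84th among 20037 genes. A listed start of GFI1B, a transcriptional repressor of blood cell development that is read in the other direction, also lay within 1 kb of both peaks, so the peaks were not those of TSC1 alone. A second TSC1 site lay 42.5 kb into the gene in the untreated list, with a height of 16, and overlapped a TGF-β1 peak of 13. All other peaks of the TSC1 window were 8 or lower, so that the gene was marked at its start and little elsewhere.

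AKT2, the AKT isoform best known for insulin-stimulated glucose uptake, had a start-site peak of 22 in the untreated list, at chr19:40285243-40285968. The overlapping TGF-β1 peak, at chr19:40284568-40285926, had a height of 34 and was the highest start-site peak of a member after TSC1 in that list. Both covered the printed promoter, and no other AKT2 peak exceeded 10. A second listed AKT2 start, about 20.0 kb into the gene, had no untreated peak within 1 kb and a TGF-β1 peak of 4.

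AKT1, its paralogue, was the member with the lowest peaks. Its 5 untreated peaks had heights of 4 to 8 and its 4 TGF-β1 peaks 4 to 7, and 0 of the 9 overlapped a peak of the other list. Low peaks were seldom overlapped at other genes either. In all gene windows the overlapped shares at heights of 3 to 4 were 13.4% for untreated and 12.8% for TGF-β1 peaks. They were 20.1% and 19.7% at 5 to 6 and 40.3% and 43.3% at 7 to 9. The highest untreated peak, of 8, lay between the 2 listed starts, 1.1 kb after the first. Neither list had a peak over the first AKT1 promoter, which had a GC content of 83.3%, against a median of 58.7% over all promoters. Whether base composition affected the recovery of reads there was not tested.

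INSR, the receptor, had a start-site peak of 13 in the untreated list and of 15 in the TGF-β1 list, and the 2 overlapped. The TGF-β1 value was exactly at the height where strong peaks begin in that list. Inside the gene, 84.2 kb from the start, an untreated peak of 11 overlapped a TGF-β1 peak of 17, at chr19:7210067-7210569, which was the highest of the gene. Another site 97.2 kb into the gene had 13 in the untreated list and 8 in the TGF-β1 list. INSR thus had no strong peak in the untreated list and 2 in the TGF-β1 list, at the start and inside the gene.

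IRS1, the adaptor, had its highest peak inside the gene. The untreated peak at chr2:226755922-226757145, with a height of 36, lay 43.3 kb after the start, and the TGF-β1 peak over it, at chr2:226756111-226756759, had a height of 38. These were the 1719th and 1107th highest peaks of their lists. Around the start the untreated list had separate peaks of 23, centred at -1.4 kb from the start, and of 13, just inside the gene. The TGF-β1 list had a single peak of 13 there, 2898 bp wide, which overlapped both. Within 1 kb of its start IRS1 was therefore strong in the untreated list only, while the internal site was strong in both. The untreated peak of 23 lay upstream of the listed promoter of 300 bases, and the untreated peak of 13 covered 108 of those bases. The peak of 23 and the wide TGF-β1 peak also overlapped the body of RHBDD1, a coding gene. No listed start of RHBDD1 lay within 1 kb of them.

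GSK3A and GSK3B, the glycogen synthase kinase 3 genes, differed in start-site height. GSK3A had 10 without and 7 with TGF-β1. In the TGF-β1 list its highest peak, of 11, lay 2.0 kb upstream and overlapped an untreated peak of 9. GSK3B had 18 and 11 just upstream of the start, where the long non-coding gene GSK3B-DT also begins, and 13 and 13 about 1.2 kb inside the gene. Of the GSK3B peaks, only the untreated peak of 18 was strong. The peaks of GSK3B had a median height of 7 in each list, against 6 and 5 on the whole of chromosome 3. This was not particular to GSK3B. RHEB had 7 and 6 against 5 and 5 on chromosome 7. GSK3A, with 3 and 4 peaks, had 9 and 7 against 5 and 5 on chromosome 19. INSR in the TGF-β1 list and AKT1 in the untreated list were below their chromosomes. The part of local read coverage in these medians was not tested.

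MTOR, the kinase, had a start-site peak of 27 in the untreated list, at chr1:11262477-11263354, and it was the highest peak of the gene there. In the TGF-β1 list the same place held 2 peaks of 15 and 6, the first at chr1:11262503-11262893, so the site was present in both lists. Inside MTOR, 93.4 kb from the start, an untreated peak of 14 overlapped a TGF-β1 peak of 22, the highest of the gene in that list. That TGF-β1 peak also overlapped LOC124904848, an annotated small nucleolar RNA gene, so the site was not that of MTOR alone. Further internal sites had 12 and 9 at 82.2 kb and 7 and 15 at 85.9 kb. The untreated list was thus highest at the start and the TGF-β1 list in the middle of the gene, from sites that both lists held.

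RPTOR, the adaptor of mTORC1, is 421.5 kb long and was the member with most peaks, 71 in the untreated list and 83 in the TGF-β1 list. Its start-site peaks had heights of 11 and 9, below the strong threshold in both lists. The highest peaks lay deep inside the gene, 347.3 kb from the start, with 27 at chr17:80890731-80893550 in the untreated list and 32 at chr17:80891233-80893373 in the TGF-β1 list. A listed start of another annotated coding gene, LOC124904075, lay within 1 kb of that site. Further RPTOR sites had 18 and 18 at 95.9 kb, 25 and 20 at 103.1 kb, 17 and 17 at 133.9 kb and 13 and 17 at 288.1 kb. Of the 11 untreated peaks of height 10 or more in RPTOR, the start-site peak included, each overlapped a TGF-β1 peak. Of the 9 TGF-β1 peaks of that height, 1 had no untreated peak, the peak of 10 located 15.2 kb into the gene. In the windows of all genes 78.9% and 83.5% of peaks of height 10 to 14 were overlapped, and 97.0% and 98.1% at 15 or more. Over all heights 32.4% of the untreated and 28.9% of the TGF-β1 peaks of RPTOR were overlapped. Over all members together the shares were much the same, 32.5% and 27.7%.

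RHEB, the GTPase above mTORC1, had start-site peaks of 14 in each list, at chr7:151519830-151521208 and chr7:151519814-151521055. Its highest peaks were internal, 27.8 kb from the start, with 21 in the untreated list and 16 in the TGF-β1 list. A peak 12.6 kb into the gene, with 11 in the untreated list, had no counterpart. RHEB was strong at the internal site only, in both lists.

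**Figure D2:**
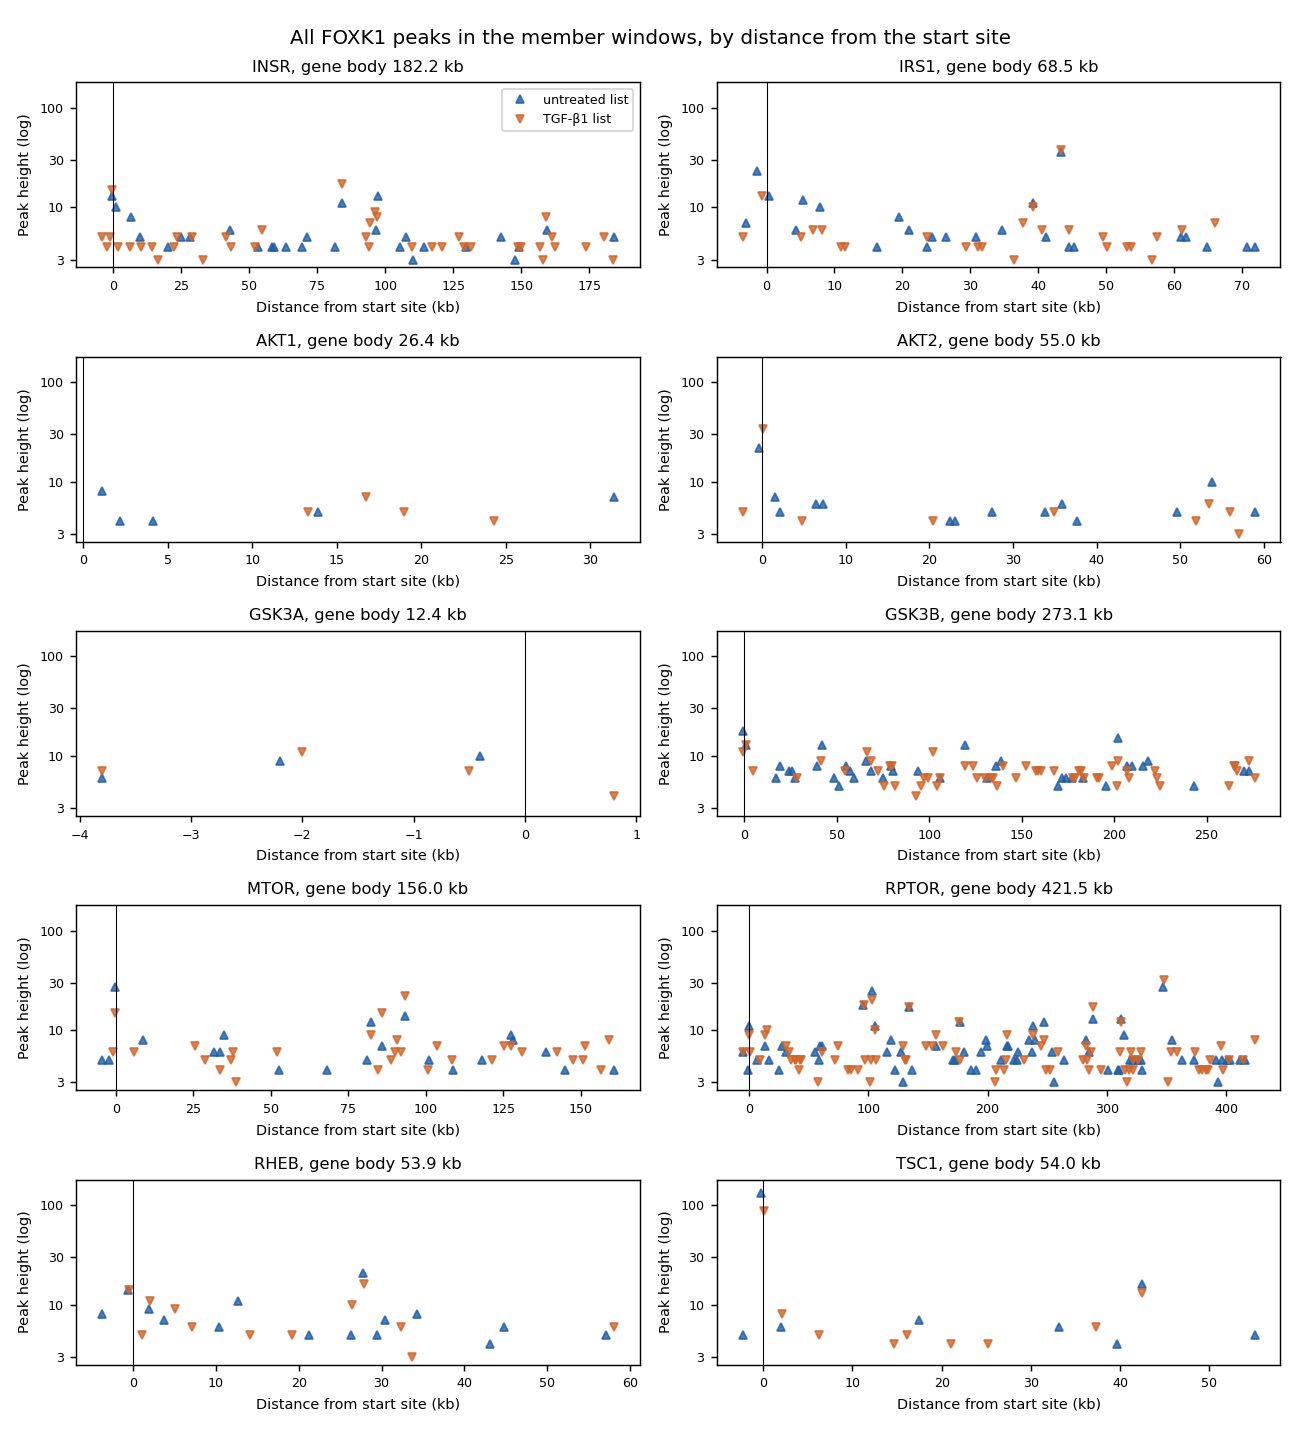
Every peak in the 10 gene windows, with distance from the first listed start in kb on the horizontal axis (positive into the gene) and peak height on a log axis; blue triangles pointing up are untreated peaks and orange triangles pointing down TGF-β1 peaks. The highest marks stand at the start in TSC1 and AKT2, at 43.3 kb in IRS1 and at 347.3 kb in RPTOR, where marks of both lists fall together.

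By position, the start sites held few of the members' peaks and many of the high ones. In the untreated list 14 of 228 peaks were at start sites, with a median height of 13, and 198 were in gene bodies, with a median of 6. In the TGF-β1 list 15 of 271 were at start sites, with a median of 11, and 241 were in gene bodies, with a median of 5. The 5 kb upstream flanks held 8 and 7 peaks and the downstream flanks 8 in each list, and none of these was strong. Strong peaks numbered 5 at start sites and 6 in gene bodies in the untreated list, and 4 and 10 in the TGF-β1 list.

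Counting the whole window, 7 of 10 members had a strong peak in each list. IRS1, AKT2, MTOR, RPTOR, RHEB and TSC1 had one in both, GSK3B in the untreated list only and INSR in the TGF-β1 list only. Of all genes, 31.1% and 29.9% had a strong peak in their window, but the members are long, with a median of 61.8 kb against 24.1 kb. Among the 6269 genes of 50 kb or more, which include 8 of the members and all of those with a strong peak, the shares were 44.1% and 43.8%. A peak of any height was in the window of every member in both lists, and of 94.7% and 94.8% of all genes. The number of peaks per 100 kb of window had a median of 14.2 and 18.8 over the members and of 14.9 and 17.5 over genes of 50 kb or more. Peak density at the members was therefore close to that of other long genes.

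Agreement between the lists rose with height at these genes as it did elsewhere. Of the 11 strong untreated peaks and 14 strong TGF-β1 peaks in member windows, each was overlapped by at least 1 bp by a peak of the other list, against 98.4% and 98.1% of strong peaks in all gene windows. Member peaks of height 3 to 4 were overlapped in 8.89% of cases in the untreated list (exact binomial 95% interval 2.48 to 21.2) and in 12.5% in the TGF-β1 list (5.88 to 22.4). At heights of 10 to 14 the shares were 91.7% (73.0 to 99.0) and 86.7% (59.5 to 98.3). Peaks in the windows of all genes were overlapped in 13.4% and 12.8% of cases at heights of 3 to 4 and in 78.9% and 83.5% at 10 to 14. The intervals cover counting error only and treat peaks of the same gene as independent, so they are no test against all gene windows. Of all member peaks, 32.5% and 27.7% were overlapped. These shares mix all heights, and the same share over all gene windows is not given here. Heights of 5 to 6 held more member peaks than any other range, 94 of 228 and 110 of 271. There the member shares were 19.1% and 13.6%, against 20.1% and 19.7% in all gene windows.

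**Figure D3:**
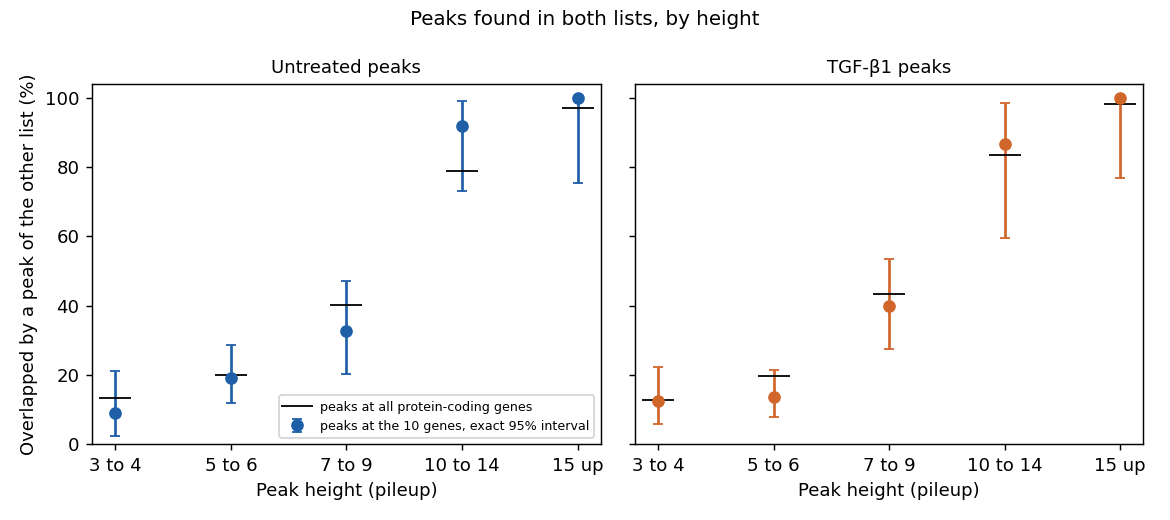
Share of peaks overlapped by a peak of the other list, in percent, by peak height, for untreated peaks (left) and TGF-β1 peaks (right); circles are peaks in the windows of the 10 genes with exact binomial 95% intervals, black bars peaks in the windows of all protein-coding genes. The share at the 10 genes goes from 8.89% and 12.5% at heights of 3 to 4 up to 100% at 15 or more. The black bars go from 13.4% and 12.8% up to 97.0% and 98.1%. The intervals treat peaks of the same gene as independent.

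Few high member peaks were found in a single list. Of peaks of height 10 or more, 2 of 37 in the untreated list had no overlap, the RHEB peak of 11 and an INSR peak of 10 that lay 1.1 kb into the gene. In the TGF-β1 list 2 of 29 had none, a GSK3B peak of 11 located 102.3 kb from the start and an RPTOR peak of 10 located 15.2 kb from it. None of these 4 was strong. High peaks were mostly overlapped at all genes too. In all gene windows 78.9% of untreated and 83.5% of TGF-β1 peaks of height 10 to 14 were overlapped, and 97.0% and 98.1% at 15 or more. No strong site at the 10 genes was thus found in 1 list alone.

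The rest of the pathway was taken from a list of 58 further genes in 5 roles. Strong start-site peaks were found at 19 of these genes without TGF-β1 and at 18 with it, against the 17.0% and 15.6% of all genes given above. Both lists had 15 of these genes in common, against 11.9% of all genes. The TGF-β1 peaks of GRB2, NPRL2, WDR59, RPS6KB1 and ULK1 were exactly at the threshold of 15. The untreated peak of LAMTOR2 was exactly at that of 17. All of these but GRB2 are among the genes in common. A start-site peak of any height was found at 56 and 57, against 70.7% and 69.4% of all genes. The 8 genes without a listed start were searched at both ends, as were such genes among all genes. The median height was 14.5 and 11, against 7 in each list over all genes.

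Among receptors, adaptors and their brakes, 4 of 6 genes were strong without TGF-β1 and 5 with it, against 17.0% and 15.6% of all genes. This role and the next 2, and the outputs below, hold 6 to 12 genes each, so their shares rest on few genes. IGF1R, the receptor for insulin-like growth factor, had 31 and 25, and the adaptor SHC1 had 27 and 26 from a peak shared with CKS1B, a cell cycle gene. IRS2, the second insulin receptor substrate, had 19 and 16 from peaks that lay apart. PTPN1, the phosphatase that acts on the insulin receptor, had 18 and 16. By the thresholds of 17 and 15, INSR and IRS1 were each strong at the start in 1 list, and IGF1R, SHC1, IRS2 and PTPN1 in both. PTPN1, and INSR with 13 and 15, stood near these thresholds. At IRS2 the untreated peak of 19 overlapped a TGF-β1 peak of 13, and the TGF-β1 peak of 16 an untreated peak of 15. GRB2, an adaptor that leads to RAS, was strong in the TGF-β1 list only, with 14 and 15, on either side of a threshold that differs between the lists.

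In the phosphoinositide 3-kinase arm, 2 and 3 of 8 genes were strong, shares of 25.0% and 37.5% beside the 17.0% and 15.6% of all genes. PIK3CA, a catalytic subunit, had 40 and 45 from neighbouring peaks. PHLPP1, a phosphatase of AKT, had 24 and 17. PIK3CB, another catalytic subunit, had 16 and 28 and was strong in the TGF-β1 list only. PIK3R1, a regulatory subunit, had 13 and 12 and was strong in neither list.

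Of the subunits of the TSC and mTOR complexes, 3 of 7 were strong, the same in both lists, against 11.9% of all genes strong in both. AKT1S1, which encodes PRAS40, the inhibitor of mTORC1 that AKT phosphorylates, had the highest peak of the whole list, with 169 in the untreated list and 134 in the TGF-β1 list. That peak also lay at a start of TBC1D17, a gene of a RAB regulator, and AKT1S1 is among the 8 genes without a listed start, for which both annotated ends were used. RICTOR, the defining subunit of mTORC2, had 40 and 49, and DEPTOR, an inhibitor of both mTOR complexes, had 33 and 33. TBC1D7, the third subunit of the TSC complex, had 16 and 11 and was strong in neither list. TSC2, the partner of TSC1, had 6 and 8, so the heights at TSC1 were not shared by its complex (chosen after its values were seen).

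For amino acid sensing at the lysosome, 5 and 4 of 25 genes were strong, shares of 20.0% and 16.0% beside the 17.0% and 15.6% of all genes. LAMTOR2, a subunit of the Ragulator scaffold, had 17 and 22 from a peak shared with UBQLN4, and NPRL2, a subunit of the GATOR1 complex, had 21 and 15 from a peak shared with CYB561D2. WDR59, of the GATOR2 complex, had 18 and 15. SESN1, a leucine sensor family member, had 19 and 13 from peaks that lay apart, the TGF-β1 one shared with CEP57L1. The untreated SESN1 peak of 19 overlapped a TGF-β1 peak of 9. LAMTOR1 had 18 and 9. SESN1 and LAMTOR1 were strong in the untreated list only. LAMTOR5 was strong in the TGF-β1 list only, with 13 and 16.

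Among outputs and feedback genes, 5 and 3 of 12 were strong, shares of 41.7% and 25.0% beside the 17.0% and 15.6% of all genes. RPS6KB1, the S6 kinase gene, had 31 and 15 from a peak shared with TUBD1. DDIT4, which restrains mTORC1 under stress, had 40 and 25. ULK1, the autophagy kinase that mTORC1 inhibits, had start-site peaks of 67 and 15. Another TGF-β1 peak, over the place of the untreated one, had a height of 46 and lay 1.8 kb from the start, outside the start-site window. GYS1, muscle glycogen synthase and the enzyme that GSK3 holds back, had 25 and 9 from a peak shared with RUVBL2. EIF4EBP2, a translation repressor that mTORC1 phosphorylates, had 19 and 13. GYS1 and EIF4EBP2 were strong in the untreated list only, and their peaks overlapped a TGF-β1 peak.

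**Figure D4:**
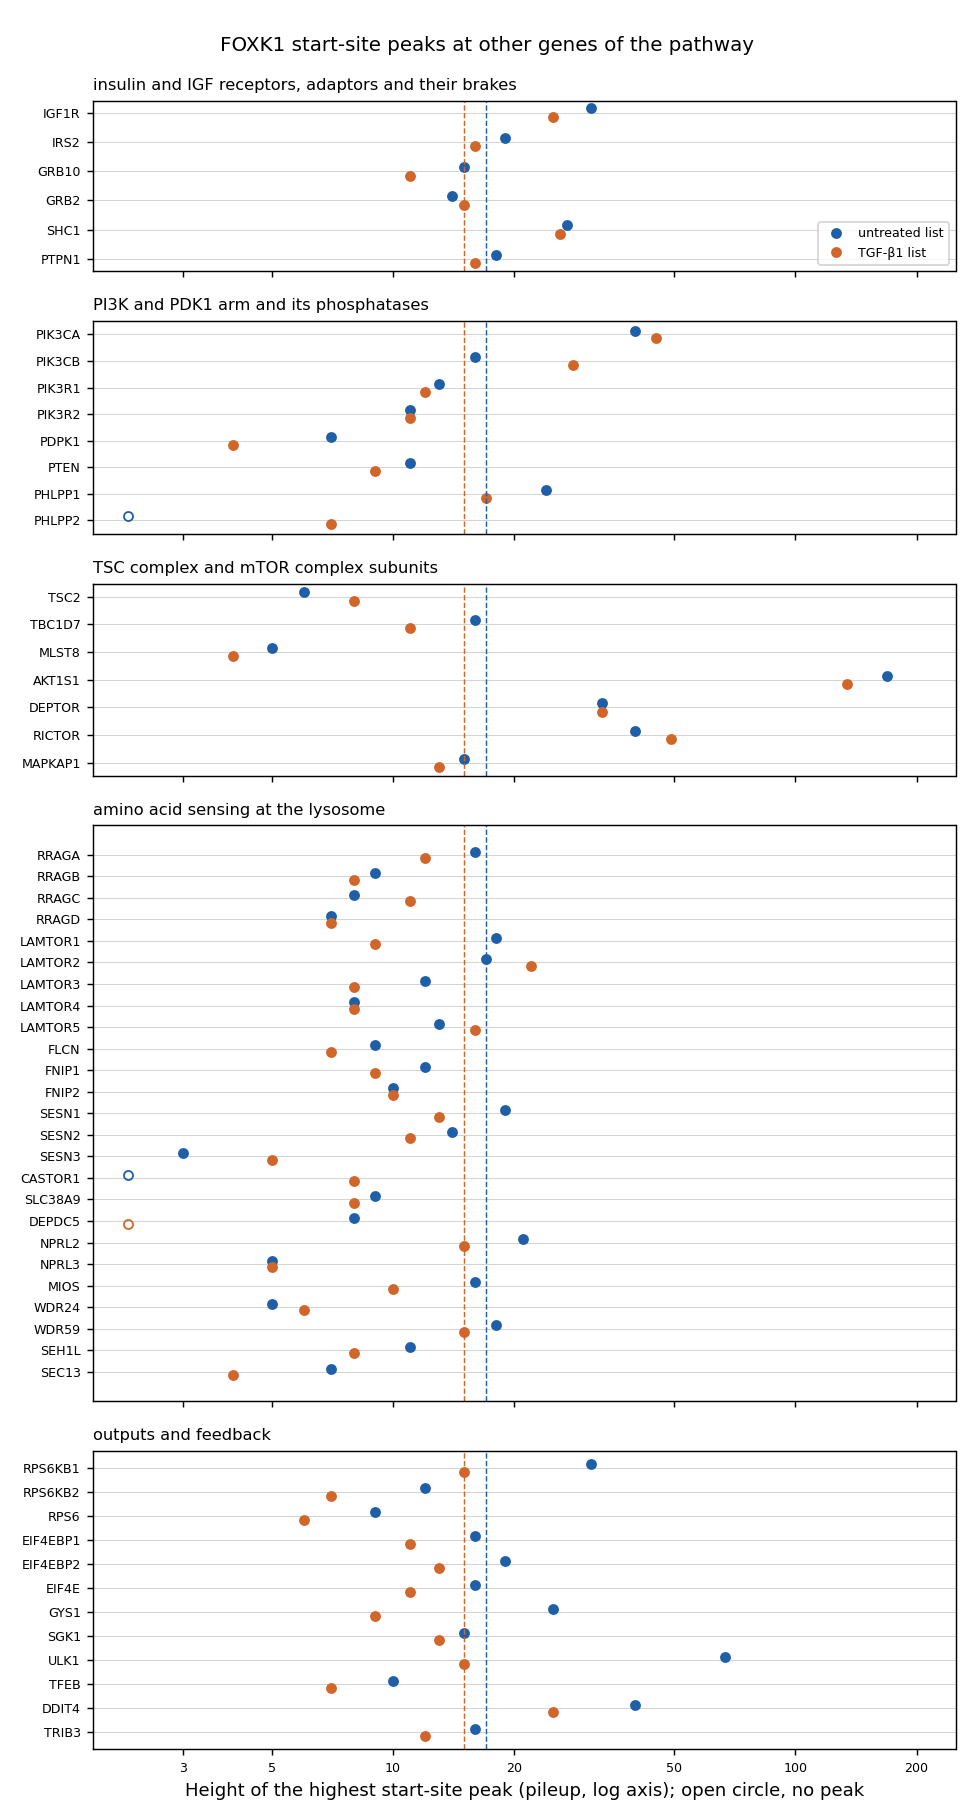
Height of the highest start-site peak at 58 other genes of the pathway, in 5 panels by role, on a log axis; blue circles are the untreated list, orange circles the TGF-β1 list, open circles mark no peak, and dashed lines mark where strong peaks begin in each list. AKT1S1 reaches 169 and 134, and most genes of amino acid sensing lie to the left of both lines.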

How the data were processed

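The submitters' processing notes name hg38, MACS2 2.1.1.20160309, a peak caller, and bcl2fastq 2.17, without their roles. The deposited signal is the authors' pileup height for each peak, in 1 list per condition, with each FOXK1 library set against its own input according to the peak names. The aligner, the filters, the peak threshold and the depth are not given in the sources used here. Depth is therefore unknown, and heights carry no error.

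Starts were read as counting from 0 and raised by 1, which may shift every printed start by 1 bp. Peaks on 24 assembled chromosomes were joined to RefSeq genes and promoters of GRCh38.p14 in pandas 2.3.3 and numpy 2.4.6, under Python 3.11.15, and intervals were computed in scipy 1.17.1. The overlap code was checked on simulated intervals. Figures were drawn with matplotlib 3.10.9. A start listed for a gene was its start site, and the 4195 protein-coding genes without one, 8 of the pathway list among them, were given both ends. Exons and introns were not annotated. A peak counted as shared with a neighbouring coding gene when it touched the 1 kb around a start of that gene.

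With 1 library per condition no test was made. Of the pathway list, 1 gene is not reported here and enters none of its counts. The members, lists and thresholds were chosen with earlier results of these data known. Named were the 10 members, up to 4 pathway genes a role with the highest start-site peaks (ties kept), those strong in 1 list only, and genes sharing a peak. Flanks, start-site windows, height minimums, strong thresholds and the overlap rule were varied.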

Additional observations from a re-analysis of the deposited data

How the results depend on the processing

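With no replicates, no result has an error from libraries, and depth limits which low peaks could be listed. No paired analysis was possible because each condition had 1 FOXK1 library and the labels give no replicate numbers. Of 40 recomputed counts, 29 stayed within 1.5 times of the reported value. When strong peaks began at the 5000th highest peak, members with a strong peak in the window fell from 7 to 4 in the untreated list and from 7 to 5 in the TGF-β1 list. The overlapped strong member peaks numbered 6 and 5 at that setting, and 23 and 24 when strong peaks began at the 20000th. In the TGF-β1 list 1 of the 25 strong member peaks of the lower threshold had no overlap. Pathway genes with a strong start-site peak numbered 11 and 9 at the higher threshold and 33 and 32 at the lower, against 19 and 18. Keeping only peaks of height 10 or more left 37 and 29 peaks in the member windows. These moves follow from how many peaks each threshold admits. Leaving out pathway genes without a listed start, chosen after seeing the data, gave 17 and 16. Of 80 recomputed heights of single members, 72 stayed the same. With a flank of 10 kb the highest window peak became 19 and 10 at AKT1 and 21 and 18 at GSK3A. Without a flank it became 4 at GSK3A in the TGF-β1 list.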

Other observations

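Several pathway genes had their highest peak more than 1 kb from their own start, and these were chosen after their values were seen. In IGF1R, 204.0 kb from the start, an untreated peak of 97 at chr15:98852043-98853110 overlapped a TGF-β1 peak of 103, against 31 and 25 at the start itself. An end of the non-coding gene LOC124903561 also lies in that site. PIK3CB had 101 and 78 about 10.9 kb into the gene, with the TGF-β1 peak at chr3:138823611-138824508, a place where the annotation also lists the pseudogene EEF1A1P25. The PIK3CB site is uncertain, since the part of reads from near-identical copies was not tested. MAPKAP1, a subunit of mTORC2, had 31 and 28 at 169.1 kb, where the non-coding gene LOC124902270 also lies. GYS1 had 41 and 33 at 14.2 kb, and PTPN1 had 27 and 27 at 15.4 kb.

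The surroundings of the members with low peaks were not empty. AKT1, with no peak above 8 in its window, had a site of 22 in the untreated list and 27 in the TGF-β1 list 19.4 kb upstream of the gene. GSK3A had peaks of 34 and 37 upstream within 50 kb, at CIC, a transcriptional repressor gene, at places 25.2 kb and 40.4 kb away. Which gene such sites act on cannot be read from a peak list.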
